A study of Mus musculus with 39 samples.

Results

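Among 2734 genomic regions that carried H3K27me3 in Oct4+ cells, 192 had no H3K27ac region in the same cells but overlapped an H3K27ac region in DP cells, in Pdgfra+ cells or in both. These 192 regions, 7.02% of the 2734, are the subject here, and they were selected on those values. A region was counted for a mark and population when the merged SEACR peaks of its 3 libraries held a peak of at least 2 libraries, and is called a consensus region below. Of the remaining regions, 2120 overlapped no H3K27ac consensus region in any population (never acetylated) and 422 overlapped one in Oct4+ cells. CUT&Tag, which tags the DNA around an antibody-bound histone mark by transposition, had been performed for 4 marks with 3 replicates per population. All cells came from untreated cultures of naive extra-embryonic endoderm (nEnd), an in vitro counterpart of the primitive endoderm, made from 1 mouse line with an OCT4-mCherry reporter. The cultures were grown with Activin A, CHIR99021 and LIF and had been expanded on a layer of mouse embryonic fibroblasts. FACS for OCT4-mCherry and PDGFRA-APC gave cells with the reporter (Oct4+), with both signals (DP) or with PDGFRA (Pdgfra+), so that the populations are gates on cells of the same cultures and each is a mixture within its gate.

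H3K27me3 is deposited by Polycomb repressive complex 2 and is a mark of genes held silent, often at the starts of developmental regulators. H3K27ac sits on the same lysine, so that 1 histone tail cannot carry both, and marks active promoters and enhancers. H3K4me1 is found at enhancers, whether active or primed, and H3K9me3 at heterochromatin. The primitive endoderm is the extra-embryonic lineage of the blastocyst that is set apart from the pluripotent epiblast by FGF signalling and by GATA and SOX factors, and PDGFRA is a surface marker of it.

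The lists held 1143 to 8672 peaks for H3K27me3, 3079 to 65131 for H3K27ac, 1074 to 16057 for H3K4me1 and 5322 to 29970 for H3K9me3, and sequencing depth was unknown. A region without a listed peak may still carry a mark. Of 10 endoderm genes used to check the sort, 6 to 9 had H3K27ac over the start in the DP libraries, 7 to 8 in Pdgfra+ and 0 to 3 in Oct4+. Of 10 pluripotency genes, 6 to 8 did in Oct4+ and 1 to 3 in DP and Pdgfra+. None of 25 fibroblast genes had H3K27ac over the start in any DP or Pdgfra+ library, and 0 to 3 did in Oct4+.

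The sequences at the summit of endoderm acetylation are shown for 5 of the regions, as examples with and without H3K27me3 in the endoderm populations. They differ in CpG content but do not span its range. The 172 windows described below had a median of 13 CpG dinucleotides and at most 37, and the 5 shown had at most 14. Windows with bases of an annotated untranslated region were not shown. Each is the plus strand of mm10 (GRCm38), 200 bp centred on the interval of highest H3K27ac signal in the strongest DP or Pdgfra+ peak. The Sox7 window (chr14:63942464-63942663) is intergenic and centred 1110 bp upstream of the annotated start, and the Adora1 window (chr1:134226329-134226528) lies in an intron 9003 bp downstream of the start. The Bmp2 window (chr2:133554518-133554717) lies in a coding exon, 2458 bp downstream of the start. The Lamb1 window (chr12:31262046-31262245) is intergenic, 3089 bp upstream, and the Cdx2 window (chr5:147299427-147299626) is intergenic, 7744 bp downstream of the Cdx2 start. Capitals mark a match to the GATA, forkhead, SOX or octamer motifs given below the sequences.
Sox7: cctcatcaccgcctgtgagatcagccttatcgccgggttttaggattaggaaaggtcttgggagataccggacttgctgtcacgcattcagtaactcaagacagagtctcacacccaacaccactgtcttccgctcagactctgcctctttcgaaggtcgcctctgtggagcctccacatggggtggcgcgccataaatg
Bmp2: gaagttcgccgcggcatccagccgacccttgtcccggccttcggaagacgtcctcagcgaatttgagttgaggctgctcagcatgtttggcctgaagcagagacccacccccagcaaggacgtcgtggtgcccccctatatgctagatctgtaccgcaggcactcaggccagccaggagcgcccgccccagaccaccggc
Lamb1: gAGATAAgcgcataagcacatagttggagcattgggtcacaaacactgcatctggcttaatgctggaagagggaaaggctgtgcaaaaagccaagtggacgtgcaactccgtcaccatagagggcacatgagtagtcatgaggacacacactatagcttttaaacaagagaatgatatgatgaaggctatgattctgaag
Adora1: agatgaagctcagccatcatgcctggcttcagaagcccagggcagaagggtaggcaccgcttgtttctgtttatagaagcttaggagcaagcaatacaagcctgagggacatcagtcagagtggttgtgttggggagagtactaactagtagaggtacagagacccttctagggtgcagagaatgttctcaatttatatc
Cdx2: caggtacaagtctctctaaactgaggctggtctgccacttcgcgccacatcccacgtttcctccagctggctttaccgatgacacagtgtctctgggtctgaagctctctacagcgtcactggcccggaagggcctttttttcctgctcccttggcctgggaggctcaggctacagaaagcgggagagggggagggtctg
The windows of Sox7 and Bmp2 had GC contents of 54.5 and 64% and held 10 and 14 CpG dinucleotides, whereas those of Lamb1 and Adora1 had 45 and 48% GC and held 3 and 1 CpGs. Motifs were searched on both strands, and a base could count for more than 1. A GATA match, either AGATAA or the alternative form TGATAA, was present in the Lamb1 window. None of the 5 windows held a forkhead match (TGTTTAC and its variant TATTTAC). None held a SOX match (AACAAT) either. An octamer match (ATGCAAAT) was likewise not found. Among the 172 regions whose summit lay inside them, 9.3% of windows held a GATA match, 1.16% a forkhead match, 2.91% a SOX match and 0% an octamer match. In windows of the same length at the 8559 other DP or Pdgfra+ H3K27ac regions, outside Oct4+ H3K27me3, these shares were 11.6, 3.75, 6.06 and 0.689%. The median GC content was 64% in the 172 windows and 61% in the others, and the median ratio of observed to expected CpG was 0.678 and 0.658. The summit lay within 1000 bp of a protein-coding start in 51.7% of the 172 windows and 56.4% of the others. Away from starts, 15.7% of 83 windows held a GATA match, 1.2% a forkhead match and 2.41% a SOX match, against 21.9, 6.68 and 11.2% of 3728 other windows. Within 1000 bp of a start, the shares were 3.37, 1.12 and 3.37% of 89 windows, against 3.64, 1.49 and 2.07% of 4831 others. These shares are descriptions, and a match is not evidence of binding.

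Most of the 192 regions were acetylated in DP cells. H3K27ac consensus regions of both DP and Pdgfra+ overlapped 88, DP alone 95 and Pdgfra+ alone 9. The acetylated stretch in the population with the longer one had a median of 4376.5 bp and covered a median of 48.8% of the region, whose own median width was 9906.5 bp (9149.5 bp for never-acetylated regions). By library, an H3K27ac peak was present in 93.2, 29.2 and 94.3% of the regions in DP replicates 1 to 3, and in 47.9, 57.3 and 42.2% in Pdgfra+. DP replicate 2, with the shortest H3K27ac list (3079 peaks), was the low value. In Oct4+, H3K27ac peaks were found in 7.81, 61.5 and 0% of them. The high value was that of replicate 2, whose list was the longest of all (65131 peaks), and the same library had a peak in 35.1% of never-acetylated regions. In all, 65 of the 192 regions had no H3K27ac peak in any Oct4+ library, 121 had one in 1 library (112 of these in replicate 2) and 6 in 2 libraries at separate places. The Oct4+ state of those 127 regions is thus unacetylated by the rule for 2 of 3 libraries and not by every library. At the edge of the rule, 3 regions had under 500 bp of acetylated overlap (9 bp in the smallest), and 124 never-acetylated regions had a DP or Pdgfra+ H3K27ac peak in at least 1 library that did not make a consensus region.

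H3K27me3 in Oct4+, also used to choose the regions, had a peak in 52.6, 96.4 and 100% of the 192 regions in replicates 1 to 3 and in 54.6, 95.7 and 100% of never-acetylated regions. The shares differed by -1.97 to 0.694 points, so that both sets were marked about equally often in each Oct4+ library. Replicate 3 of Oct4+ had the longest H3K27me3 list of that population, and without replicate 3 of every mark the rule took 37 regions in place of 192.

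H3K27me3 in DP and Pdgfra+ was not used to choose the regions, and it was less frequent in them than in never-acetylated regions of the same libraries. The comparison is not independent of the choice, because H3K27ac of these same populations, on the same lysine, split the regions from the never-acetylated ones. The test below therefore cannot separate a lower share from the way the regions were chosen. In DP, a peak was present in 41.7, 64.1 and 54.2% of the 192 regions, against 76.7, 92.8 and 87.9% of never-acetylated regions. In Pdgfra+, it was present in 7.81, 15.6 and 28.6%, against 24.7, 45.5 and 77.2%. Every library had the lower share in the acetylated regions, with a mean difference of -32.1 points over the 6 libraries (exact two-sided sign-flip permutation p = 0.0312, the smallest that 6 libraries allow, adjusted p = 0.0938 over 6 tests). The adjusted value did not pass 0.05. The difference was -32.5 ± 3.32 points in DP and -31.8 ± 15.9 points in Pdgfra+ (SD, n = 3), and the gap between the populations was not distinguishable from 0 (exact permutation p = 1, with a smallest possible p of 0.1). Expressed as a ratio of the shares in the same library, acetylated regions stood at 0.544 to 0.69 of never-acetylated regions in DP and 0.316 to 0.371 in Pdgfra+.

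**Figure D1:**
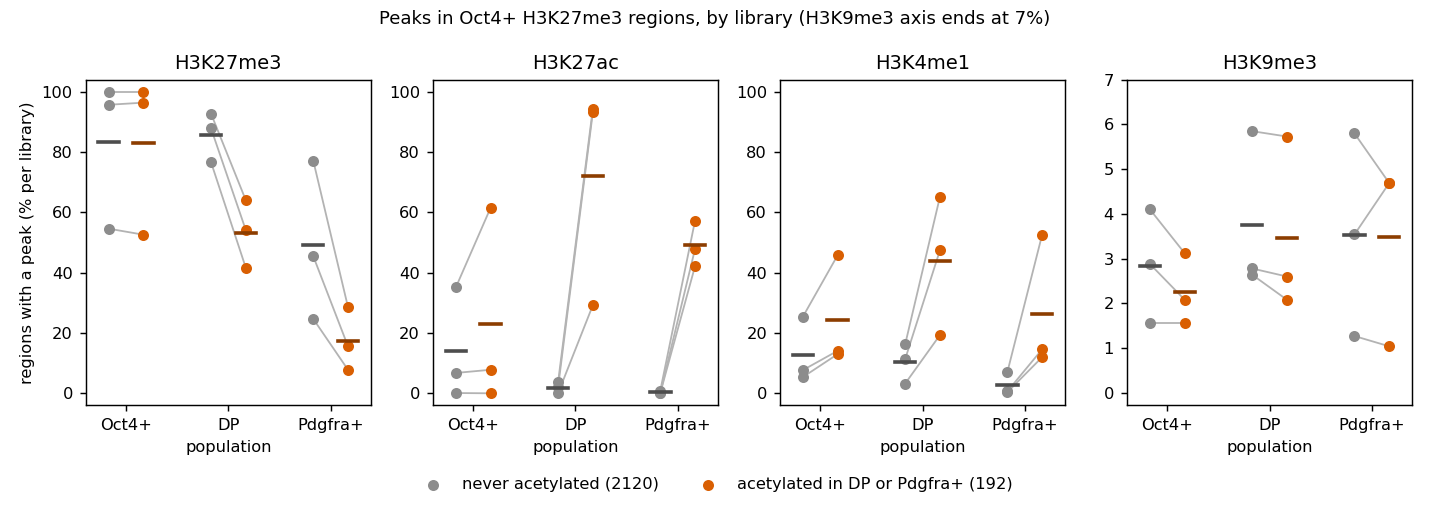
Percentage of regions with a peak in each library, for the 192 regions acetylated in DP or Pdgfra+ (orange) and 2120 never-acetylated regions (grey), by mark and population; each line joins the 2 shares of 1 library and each bar is the mean of 3. H3K27me3 lay lower in the orange points of all 6 DP and Pdgfra+ libraries and H3K4me1 lay higher in all 9, whereas H3K27ac and Oct4+ H3K27me3 show how the regions were chosen.

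At the level of consensus regions, 106 of the 192 regions (55.2%) kept H3K27me3 in DP, meaning that it was listed there as well as in Oct4+ with no order in time implied, against 84.3% of all 2734 and 87.7% of never-acetylated regions. In Pdgfra+, 33 (17.2%) kept it, against 47.6% of all and 50% of never-acetylated regions. H3K27me3 remained in both populations at 31 regions, in DP alone at 75, in Pdgfra+ alone at 2 and in neither at 84. This split was not made for the other regions. Among all 2734, too, H3K27me3 was listed more often in DP than in Pdgfra+ (84.3 against 47.6%), so the excess of DP alone is not particular to the 192. No H3K27me3 peak was listed in any of the 6 libraries at 64 regions (33.3%), as compared with 5.19% of never-acetylated regions, and 10 regions (5.21%) had a peak in all 6, as compared with 20.8%. The regions therefore ranged from complete absence of listed H3K27me3 in both endoderm populations to its presence throughout.

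Both marks were often listed over the same DNA in DP. Of 183 regions acetylated in DP, 101 also held an H3K27me3 consensus region of DP, and in 91 of these the marks shared bases, with a median overlap of 3743 bp. Where H3K27me3 of DP was kept, it covered a median of 86.2% of the region, which leaves little room for separate stretches. The overlap is between consensus regions merged over libraries, so it need not be present in every replicate. In Pdgfra+, 13 of 97 acetylated regions held both marks and 5 had shared bases. Peak lists come from many cells, and both alleles, so that both marks on neighbouring nucleosomes of 1 cell and separate cells with 1 mark each cannot be told apart. Regions acetylated in DP and Pdgfra+ had H3K27me3 in 36.4, 55.7 and 39.8% of cases in the DP libraries, and those acetylated in DP alone in 43.2, 72.6 and 67.4%. In the Pdgfra+ libraries the shares were 0, 12.5 and 20.5% for the first class and 12.6, 20 and 34.7% for the second. The shared class had the lower value in each of the 6 libraries. As the classes were set by H3K27ac calls in these populations, this is given as a description.

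**Figure D2:**
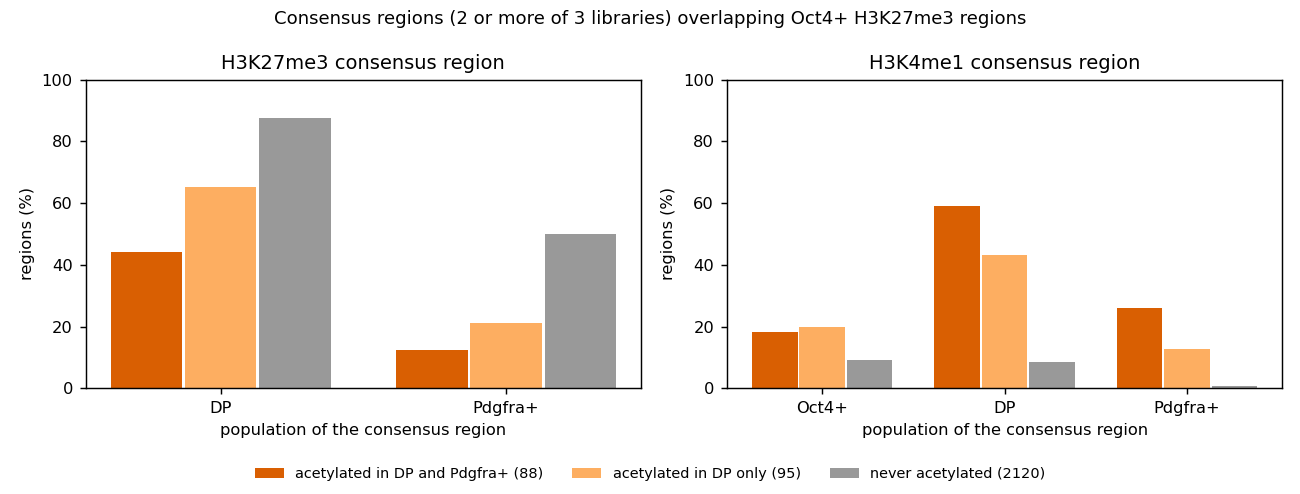
Percentage of regions that overlap a consensus region of H3K27me3 (left) or H3K4me1 (right) of the population on the x axis, for 88 regions acetylated in DP and Pdgfra+, 95 acetylated in DP alone and 2120 never acetylated; the 9 acetylated in Pdgfra+ alone are not drawn. H3K27me3 of DP was kept at 44.3, 65.3 and 87.7% of these classes, and H3K4me1 of DP was present at 59.1, 43.2 and 8.4%.

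The regions were next aligned on the centre of the acetylated stretch, a description only, since both Oct4+ H3K27me3 and endoderm H3K27ac chose them. At this centre, 68.8% of the regions lay under H3K27me3 in Oct4+ (mean of 3 libraries, range 32.3 to 99%), 38.5% in DP (32.3 to 48.4%) and 6.6% in Pdgfra+ (1.04 to 15.6%). The remaining H3K27me3 of DP and Pdgfra+ was lower in the acetylated stretches than in the rest of the same regions. In DP, 31.8, 38.8 and 27.4% of the bases under H3K27ac carried an H3K27me3 peak, against 42, 50.1 and 34.4% of the other bases. In Pdgfra+, the values were 1.25, 2.59 and 16.2%, against 1.98, 8.04 and 31.7%. Oct4+ H3K27me3 showed the other order in replicates 1 and 2, with 24.7 and 63.2% under the stretch acetylated in endoderm against 10.1 and 35.7% elsewhere, and 99 against 99.5% in replicate 3.

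**Figure D3:**
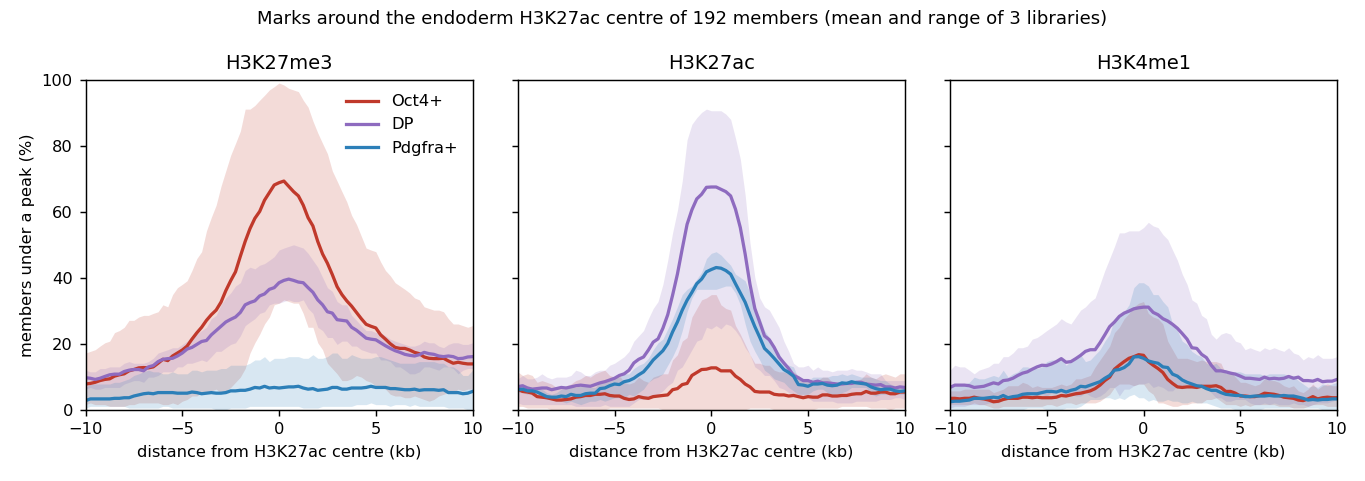
Percentage of the 192 regions under a peak of H3K27me3, H3K27ac or H3K4me1 at each distance from the centre of the endoderm H3K27ac stretch, over 10 kb to each side (lines, mean of 3 libraries; bands, lowest to highest library). At the centre, H3K27me3 covered 68.8% of the regions in Oct4+, 38.5% in DP and 6.6% in Pdgfra+.

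H3K4me1 was more frequent in the 192 regions than in never-acetylated regions. Both sets were defined by H3K27ac, which, like H3K4me1, is found at active enhancers, so this comparison is not independent of the choice either. A peak was present in 13, 45.8 and 14.1% of them in Oct4+, in 19.3, 65.1 and 47.4% in DP and in 14.6, 12 and 52.6% in Pdgfra+. The never-acetylated regions had 5.38, 25.4 and 7.69% in Oct4+, 3.21, 16.2 and 11.3% in DP and 0.66, 0.377 and 7.08% in Pdgfra+. The share was higher in 9 of 9 libraries, by a mean of 22.9 points (exact two-sided sign-flip permutation p = 0.00391, the smallest that 9 libraries allow, adjusted p = 0.0234). This call was lost when any 1 replicate was left out (16.1 to 33.6 points, adjusted exact permutation p = 0.0938 to 0.188) and when same-numbered libraries were kept together as a block (adjusted exact permutation p = 0.6). Before adjustment, the smallest possible exact sign-flip permutation p is 0.0312 with 6 libraries and 0.25 with the block. The block could therefore give no call whatever the values. The difference had the same direction in Oct4+, where it was 11.5 ± 7.76 points, and was 33.7 ± 16.5 points in DP and 23.7 ± 19 points in Pdgfra+ (SD, n = 3). These 3 values did not differ beyond the spread between libraries (exact permutation p = 0.289, adjusted p = 0.434). High values followed long lists, as in replicate 2 of Oct4+ (16057 peaks) and replicate 3 of Pdgfra+ (10620 peaks, against 1723 and 1074 in the other two). With the lists of each mark held to equal numbers of peaks, which left 52 regions, the DP difference exceeded that of Oct4+ by 14.9 points and the populations differed (exact permutation adjusted p = 0.0321), as they did in no other setting tried.

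An H3K4me1 consensus region was found at 37 of the 192 regions (19.3%) in Oct4+, against 12.3% of all 2734, at 94 (49%) in DP, against 13.9%, and at 36 (18.8%) in Pdgfra+, against 2.93%. At 71 regions (37%) H3K4me1 was listed in DP and not in Oct4+, against 5.66% of never-acetylated regions. It was listed in both at 23 and in Oct4+ and not in DP at 14, for which no comparison share was computed. No population had it at 80 regions (41.7%), as compared with 85% of never-acetylated regions. Regions with and without H3K27me3 in DP both carried H3K4me1 there, at 46 of 106 (43.4%) and 48 of 86 (55.8%).

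H3K9me3 was rare in the regions. It was found in 1.04 to 5.73% of them per library, and its mean difference from never-acetylated regions was -0.313 points over 9 libraries (exact two-sided sign-flip permutation p = 0.203, adjusted p = 0.406). The first value changed sign with peaks in at least 1 library, to 1.36 points (adjusted exact permutation p = 0.0117), and was -1.78 points with peaks in all 3 (adjusted exact permutation p = 0.0352). The difference between populations was also within the spread between libraries (exact permutation p = 0.768, adjusted p = 0.921). In DP, 6 regions (3.12%) held an H3K9me3 consensus region, as compared with 3.73% of all 2734.

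The regions were found mainly at gene starts, as were the never-acetylated ones. A protein-coding start lay in 147 of 192 (76.6%) and in 73.7% of never-acetylated regions, and 34 of the other 45 (75.6%) overlapped a protein-coding gene body, as did 61.2% of never-acetylated regions without a start. The regions held the starts of 169 genes, 0.771% of the 21911 annotated protein-coding genes. The start itself lay under H3K27ac of DP or Pdgfra+ for 135 of the 169, under H3K27me3 of DP for 96 and under both marks of DP for 62. The regions were chosen on H3K27ac of these populations and H3K27me3 of Oct4+, so these counts are not independent of the rule. Of all protein-coding starts, single libraries listed H3K27ac over 10.6 to 34.5% in DP and 15.8 to 22.4% in Pdgfra+. For H3K27me3 in DP the shares were 11.9 to 17%. They are per library, not by consensus regions.

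As a background for the gene lists, the 192 regions held 7.55% of the 2238 genes whose start lay under Oct4+ H3K27me3. Transcription factors of the endoderm were represented by 3 of 20 listed genes, Sox7 and Foxa2 among them. Oct4+ H3K27me3 covered the starts of 11 of the 20, of which 5 were in regions acetylated in Oct4+ too and 3 in never-acetylated regions. Levels at single regions are given as the percentile of the strongest overlapping peak, by total signal, among all peaks of its library, and a library without a value had no peak. Sox7, an SRY-related factor expressed in primitive and parietal endoderm, had H3K27me3 in Oct4+ at percentiles 85.6, 54.0 and 86.2 (chr14:63938952-63950638) and in no DP or Pdgfra+ library. Its H3K27ac stood at 96.5, 69.9 and 72.5 in DP and at 76.9, 80.3 and 80.0 in Pdgfra+, with 1 peak in Oct4+ replicate 2 (51.2). All 6 endoderm libraries thus listed H3K27ac and none listed H3K27me3 at Sox7. Foxa2, a forkhead factor of endoderm, lay in a wider region (chr2:148025999-148050201) with H3K27me3 in Oct4+ replicates 2 and 3 (95.5 and 96.0) and in DP replicate 2 (95.6). Its H3K27ac was at 89.1, 79.1 and 89.3 in DP and 73.3, 86.5 and 37.2 in Pdgfra+. Foxa2 thus kept a listed H3K27me3 peak in 1 of the 6 endoderm libraries.

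Receptors and ligands were represented by Pdgfra, Pth1r, Bmp2 and Ihh, 4 of 25 listed genes, with 13 of the 25 under Oct4+ H3K27me3. Pdgfra, the receptor by which the cells were sorted, had H3K27me3 in Oct4+ replicates 2 and 3 (39.4 and 86.2, chr5:75145416-75157516) and in no DP or Pdgfra+ library. H3K27ac was absent from all 3 Oct4+ libraries and was at 73.9 and 91.0 in DP replicates 1 and 3 and at 58.5, 74.5 and 9.9 in Pdgfra+. H3K4me1 of DP was at 98.3 and 90.9 in replicates 2 and 3. The region of Pth1r, the parathyroid hormone receptor of parietal endoderm, also held the start of Myl3, a myosin light chain gene (chr9:110723205-110750693). It had H3K27me3 in Oct4+ at 94.7, 94.9 and 98.8 and in no other library. Its H3K27ac was at 96.6, 75.2 and 99.0 in DP and at 95.4, 91.9 and 93.4 in Pdgfra+, and its H3K4me1 at 99.0, 99.7 and 96.6 in DP, with none in Oct4+ for either mark. By the mean of the 6 endoderm H3K27ac percentiles, 91.9, it ranked first of the 38 regions with H3K27me3 in all Oct4+ libraries and H3K27ac in none of them. Ihh, a hedgehog ligand made by visceral endoderm, kept H3K27me3 in DP replicates 2 and 3 (62.9 and 33.8) and Pdgfra+ replicate 3 (14.5), with 96.4, 95.5 and 97.3 in Oct4+. Bmp2, a BMP ligand of visceral endoderm, was acetylated in DP replicates 1 and 3 (55.7 and 69.3) and in Pdgfra+ replicate 1 alone (14.7), and kept 1 weak H3K27me3 peak in DP replicate 3 (1.1).

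Of 20 listed matrix genes, 5 lay under Oct4+ H3K27me3 and 2 of these were in the 192 regions, and of 20 listed genes of endocytosis and polarity the counts were 7 and 2. Lamb1, the laminin beta 1 chain of basement membranes, had weak Oct4+ H3K27me3 at 0.7, 12.8 and 63.0 (chr12:31261146-31268474). Its H3K27ac was at 99.6 and 95.3 in DP replicates 1 and 3 and at 87.8, 61.6 and 96.3 in Pdgfra+. The whole Lamb1 region lay under H3K27ac of both populations. P4ha2, a prolyl hydroxylase of collagen synthesis, had Oct4+ H3K27me3 at 59.3, 68.8 and 79.6 and H3K4me1 in all 3 DP libraries (61.3, 96.5 and 70.2). Lrp2 and Amn, which encode megalin and the cubilin partner amnionless of the endocytic machinery of visceral endoderm, were acetylated in DP replicates 1 and 3, at 90.5 and 61.7 for Lrp2 and at 98.9 and 67.6 for Amn. By consensus regions, Lrp2 was acetylated in Pdgfra+ too, and Amn in DP alone. Lamb1, P4ha2, Lrp2 and Amn had no H3K27me3 peak in any of the 6 DP and Pdgfra+ libraries, and each had 1 H3K27ac peak among the 3 Oct4+ libraries.

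Of the listed genes of trophectoderm, mesoderm and ectoderm, 1 was in the 192 regions. The lists are small beside the background share of 7.55%, so nothing is read from these counts. Cdx2, a homeobox factor of trophectoderm, was the 1 gene from 25 listed for that lineage, of which 16 lay under Oct4+ H3K27me3. In its wide region (chr5:147297569-147320666), H3K27me3 stood at 5.0, 91.3 and 96.6 in Oct4+, at 83.3, 92.6 and 94.5 in DP and at 51.6 and 74.9 in Pdgfra+ replicates 2 and 3. H3K27ac covered 3380 bp of the region in DP and 4781 bp in Pdgfra+, and the summit window shown above was 7744 bp from the Cdx2 start. Cdx2 was the only one of the 12 regions with a listed gene that held an H3K27me3 consensus region of Pdgfra+, and with Foxa2 and Ihh 1 of 3 that held one of DP. Of all 192 regions, 17.2% held one of Pdgfra+ and 55.2% one of DP. None of 25 mesoderm and gastrulation genes was in the 192 regions, and 17 lay under Oct4+ H3K27me3, all 17 of them in never-acetylated regions. None of 25 neural and ectoderm genes was in them, and 20 lay under Oct4+ H3K27me3, 18 in never-acetylated regions and 2 in regions acetylated in Oct4+. No listed gene of pluripotency, of the secreted proteins of visceral endoderm or of parietal endoderm was in the regions, with 1, 0 and 3 of these lists under Oct4+ H3K27me3. Sox7 and Pth1r, both named above with parietal endoderm, were in the regions but stood in other lists.

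**Figure D4:**
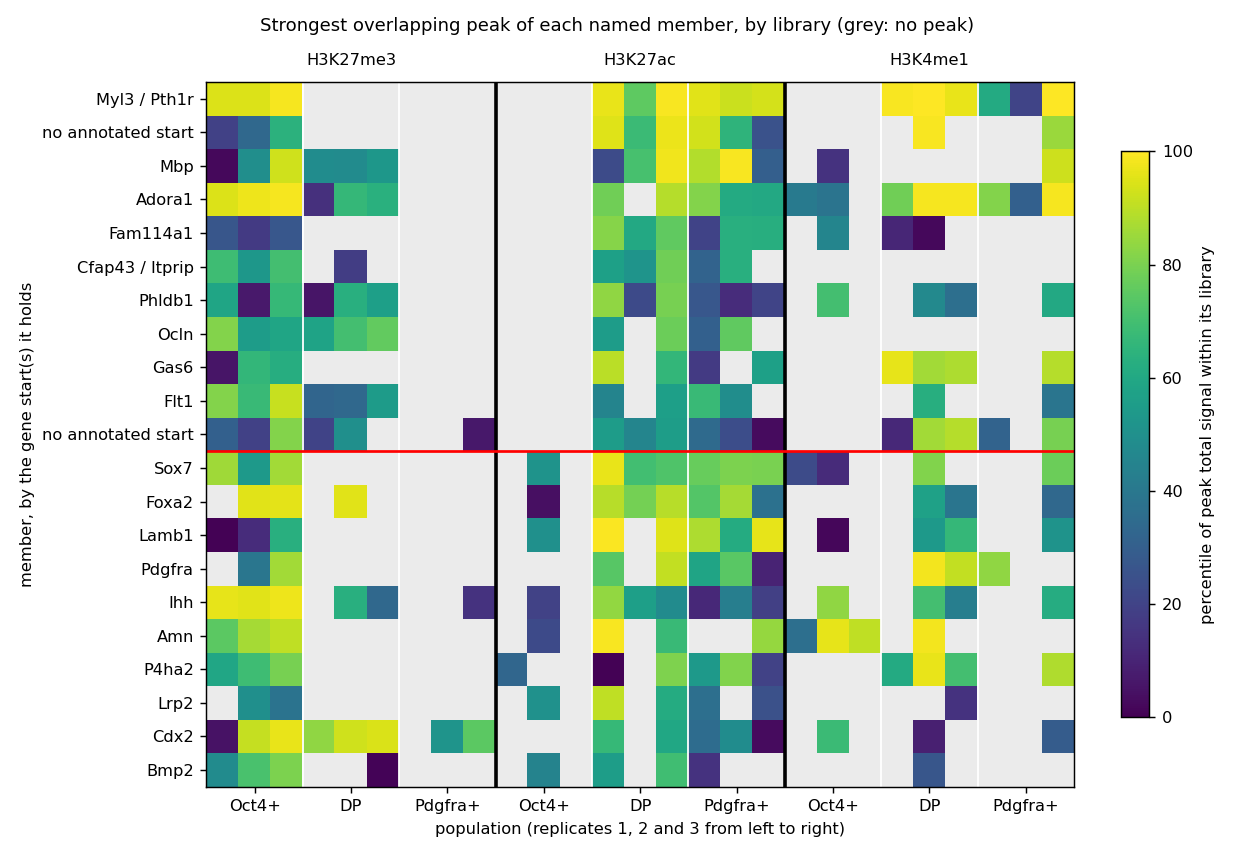
Percentile of the strongest overlapping peak within its library for 21 regions (rows, named by the gene starts they hold) and 27 libraries (columns; replicates 1 to 3 from left to right); grey is no listed peak. Above the red line are 11 of the 12 regions with the strongest mean endoderm H3K27ac among those without any Oct4+ H3K27ac peak, and below it 10 with a listed gene. None of the 12 had an H3K27me3 consensus region of Pdgfra+ (17.2% of all 192 regions), and 6 had one of DP (55.2% of all 192).

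The 12 regions with the strongest endoderm H3K27ac, among the 38 defined above, included those of Pth1r and Myl3, Mbp, Adora1, Fam114a1, Cfap43 and Itprip, Phldb1, Ocln, Gas6 and Flt1 and 2 without a protein-coding start. An H3K27me3 consensus region of DP was present at 6 of them and of Pdgfra+ at 0, and 5 had no H3K27me3 peak in any DP or Pdgfra+ library. Among all 192 regions, 55.2% held one of DP, 17.2% held one of Pdgfra+ and 33.3% had no such peak. The 12 are few and were ranked on H3K27ac of both populations, so no difference is read from these counts. Adora1, an adenosine receptor gene, had the pattern of a region in which DP kept the mark, with H3K27me3 at 94.8, 97.6 and 98.5 in Oct4+, 14.0, 66.7 and 63.5 in DP and none in Pdgfra+ (chr1:134221445-134247394). Its H3K27ac was at 78.2 and 88.9 in DP replicates 1 and 3 and at 81.6, 61.3 and 60.4 in Pdgfra+, and H3K4me1 was listed in both Oct4+ replicates 1 and 2 and in all 6 DP and Pdgfra+ libraries. Ocln, which encodes the tight junction protein occludin, had H3K27me3 at 81.3, 55.4 and 58.7 in Oct4+ and at 57.9, 70.1 and 75.8 in DP, with none in Pdgfra+ (chr13:100548786-100554253). Its H3K27ac was at 55.1 and 77.6 in DP replicates 1 and 3 and at 30.7 and 75.4 in Pdgfra+ replicates 1 and 2. Ocln had no H3K4me1 peak in any library. Flt1, a VEGF receptor gene, and Phldb1, which encodes a protein that links the cell cortex to the basement membrane, also kept H3K27me3 in all 3 DP libraries and in no Pdgfra+ library. At Flt1 it stood at 32.8, 33.6 and 54.9 in DP, and at Phldb1 at 5.5, 63.0 and 56.5.

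Gas6, a secreted ligand of the TAM receptor kinases, lay among those without listed H3K27me3 in either endoderm population. Its Oct4+ H3K27me3 was at 5.6, 66.4 and 62.2, and its H3K4me1 was listed in all 3 DP libraries (96.4, 86.2 and 87.6) and in no Oct4+ library (chr8:13488231-13495075). The strongest region without a start (chr5:39639888-39646550) lay in the annotated body of Hs3st1, a heparan sulfate sulfotransferase gene. It was 108925 bp from the 1 start used for that gene, and starts of other transcripts were not examined. The region had H3K27me3 at 19.5, 33.9 and 64.4 in Oct4+ and H3K27ac at 95.2, 68.3 and 96.9 in DP and 93.3, 65.2 and 25.2 in Pdgfra+. Acetylation there was thus listed in all 6 endoderm libraries, and H3K27me3 in none of them. The other region without a start (chr15:84609982-84620363) lay between genes, 49257 bp from the start of Prr5, and kept H3K27me3 in DP replicates 1 and 2 (20.1 and 49.9) and weakly in Pdgfra+ replicate 3 (6.5).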

How the data were processed

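Peak lists of 36 CUT&Tag libraries were used (H3K27me3, H3K27ac, H3K4me1 and H3K9me3 in Oct4+, DP and Pdgfra+ nEnd, 3 biological replicates each), and 3 IgG samples were not analysed here. Per the study's methods, the authors called peaks per library against IgG with SEACR in stringent mode. The submitters' processing notes name Bowtie2, SAMtools 1.12, bedtools 2.26.0, SEACR, deepTools, bcl2fastq 2.19.1 and the build mm10. The deposited values are the total and maximum signal of each peak, whole numbers not scaled to depth, so strength was compared as a percentile within a library. A peak missing from 1 library may lie below its SEACR threshold.

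Peaks of a mark and population were merged, and a consensus region held peaks of 2 or more of 3 libraries. It can reach beyond an Oct4+ H3K27me3 region, so that a region can overlap it with a peak of only 1 library inside. Overlap was at least 1 bp. Starts were 1 per protein-coding gene of GENCODE vM21. Shares of regions with a peak were computed per library, and the library was the unit of the 6 exact permutation tests, adjusted by Benjamini-Hochberg with a threshold of 0.05. Named regions hold the start of a listed gene or are the 12 with the highest mean H3K27ac percentile (0 without a peak) over DP and Pdgfra+ libraries, among regions with Oct4+ H3K27me3 in 3 libraries and Oct4+ H3K27ac in none. The regions, gene lists and rules were chosen with earlier results of these data known. Of the named regions, 1 is not reported here. H3K27ac and Oct4+ H3K27me3 chose the regions and were not tested. Alternatives changed the consensus, peak threshold, overlap, width, location and replicates used. Python 3.11.15, samtools 1.23.1, pandas 2.3.3 and NumPy 2.4.6 were used, and the scripts were tested on simulated peak lists and against bedtools 2.31.1 and SciPy 1.17.1.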

Additional observations from a re-analysis of the deposited data

How the results depend on the processing

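The number of regions chosen, 192 here, depended on the lists. It was 59 when each of the 3 libraries had to hold a peak, 68 with the strongest 50% of peaks, 52 with equal numbers of peaks per mark and 65 without regions that had an H3K27ac peak in any Oct4+ library, and it ran from 37 (without replicate 3) to 159 with 1 replicate left out. In the other settings it was 147 to 224.

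The H3K27me3 difference in DP and Pdgfra+ libraries was negative in all 13 settings, from -42.5 to -19.6 points, and its adjusted exact permutation p, 0.0469 to 0.6 over the alternatives, fell below 0.05 in 1 (-37.4 points with peaks in all 3 libraries, adjusted p = 0.0469); with a replicate left out it was -42.5 to -30.2. The H3K4me1 difference was positive in all 13, from 7.92 to 33.6 points. It lost its call without any 1 replicate (16.1 to 33.6 points, where 6 libraries allow no exact permutation p under 0.0312) and with the replicate block (22.9 points, exact permutation p = 0.25, the smallest the block allows, adjusted p = 0.6), and its adjusted p ran from 0.0117 to 0.6 over the alternatives. Replicate numbers are shared by the groups, but same-numbered libraries did not all deviate together. Their correlations were -0.194 to 0.049 for H3K27me3, -0.361 to 0.455 for H3K4me1 with 4 of 9 over 0.1, and -0.363 to 0.137 for H3K9me3. Pairs with different numbers had -0.163 to 0.201, -0.505 to 0.469 and -0.195 to 0.317. The numbers were not taken as pairs, although so few libraries cannot show that same-numbered ones are independent. The H3K4me1 call rests on that choice. For H3K27me3 the replicate block gave -32.1 points (exact permutation p = 0.25, adjusted p = 0.6), and it changed no other call.

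The gap between DP and Pdgfra+ in H3K27me3 (-0.713 points) had no stable sign, with 2.61 for peaks in all 3 libraries, 5.26 with equal numbers of peaks, 1.45 for regions with a start and -1.76 to 2.96 without 1 replicate. The test of H3K4me1 over the 3 populations gave a call with equal numbers of peaks only (adjusted exact permutation p = 0.0321, range 0.0321 to 0.68 over the alternatives). DP minus Oct4+ was 14.9 points there and 18.1 to 30.3 without 1 replicate. The H3K9me3 difference changed sign in regions of 5 to 20 kb (0.0932 points, with no call) and with peaks in at least 1 library (1.36 points, with a call, adjusted exact permutation p = 0.0117, range 0.0117 to 0.942 over the alternatives). It kept its sign and gained a call with peaks in all 3 libraries (-1.78, adjusted exact permutation p = 0.0352), and was -1.74 to -0.372 without 1 replicate. The test of H3K9me3 over the 3 populations gave a call with peaks in all 3 libraries only (adjusted exact permutation p = 0.0429, range 0.0429 to 0.999 over the alternatives). DP minus Oct4+ (0.303) changed sign to -2.3, -0.279, -2.49, -1.78, -0.636 and -0.194 points for peaks in all 3 libraries, in at least 1, the strongest 50%, equal numbers of peaks, no Oct4+ H3K27ac peak and share of length covered, and to -2 to -0.493 without 1 replicate. The cause of these changes was not tested. Sequencing depth is unknown, and with 3 libraries per population no comparison of 2 populations can reach a p under 0.1.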

Other observations

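Among the 192 regions, H3K27me3 of the endoderm populations also varied with width and location. Regions wider than the median of 9906.5 bp had an H3K27me3 peak in 52.1, 76 and 64.6% of cases in DP replicates 1 to 3, and narrower ones in 31.2, 52.1 and 43.8%. In Pdgfra+ the shares were 13.5, 25 and 44.8% and 2.08, 6.25 and 12.5%. A wider region has more room for a peak, so these shares describe the lists and were not tested.

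Regions with a protein-coding start had H3K27me3 in 44.2, 66.7 and 59.9% of cases in DP, and the 45 without a start in 33.3, 55.6 and 35.6%. H3K4me1 showed no single order, with 16.3, 65.3 and 46.9% in regions with a start in DP and 28.9, 64.4 and 48.9% in those without. In Pdgfra+, H3K4me1 was listed in 10.2, 11.6 and 50.3% of regions with a start and in 28.9, 13.3 and 60% of those without.

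The 422 regions that also carried H3K27ac in Oct4+ cells had H3K27me3 in 69, 84.6 and 80.3% of cases in the DP libraries. In the Pdgfra+ libraries they had 30.1, 45 and 68.2%. H3K4me1 was listed in 16.8, 51.7 and 22.5% of them in Oct4+ and in 12.6, 38.9 and 27.3% in DP, that is, above the 192 regions in each Oct4+ library and below them in each DP library.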
